A study of Homo sapiens with 6 samples.

Results

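The 36 genes described here encode enzymes that activate (E1) or conjugate (E2) ubiquitin and the ubiquitin-like proteins SUMO and NEDD8. They were taken by name from a list of E1 and E2 enzymes, and each of the 36 matched 1 Ensembl identifier among the 23406 features of the count and FPKM tables. All 36 passed the filter on low counts and were among the 14071 features tested. RNA sequencing had been done on 6 libraries of Hep-3B cells, an epithelial line from a human hepatocellular carcinoma. In 3 libraries the cells carried a control shRNA (shControl, genotype labelled WT), and in the other 3 an shRNA against NXN (shNXN, labelled NXN knockdown), the gene of the redox protein nucleoredoxin. Both groups were transduced with lentivirus and selected with puromycin, and each gave 1 library per time point, on days 7, 9 and 11. The labels do not say that the days came from separate transductions, so p-values measure the spread between these libraries, and a bulk library cannot tell fewer cells from less RNA per cell.

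Ubiquitin reaches its substrates through 3 kinds of enzyme. An E1 uses ATP to form a thioester with ubiquitin, an E2 takes ubiquitin over on a catalytic cysteine, and an E3 ligase brings the charged E2 to the substrate. SUMO and NEDD8 have E1 and E2 enzymes of their own, and NEDD8 is known for switching on the cullin-RING ligases. In liver cells, as in others, these cascades feed proteins to the proteasome and mark them for repair, trafficking and signalling.

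The stretch around the catalytic cysteine shows what the E2 enzymes share and where their messages differ. The 6 sequences below are coding sequence, 5′ to 3′, from the principal GENCODE 29 transcript on GRCh38, and were chosen, with the values known, to set UBE2K and UBE2D3, which fell with the day as a block in the test, and UBE2A, which was lower by counts without passing, beside 3 members that rose with the block. Capitals mark the codons of the His-Pro-Asn motif and the codon of the catalytic cysteine.
UBE2K: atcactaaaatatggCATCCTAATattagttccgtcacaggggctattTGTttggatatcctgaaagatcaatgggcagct
UBE2D3: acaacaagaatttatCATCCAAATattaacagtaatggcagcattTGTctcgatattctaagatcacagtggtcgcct
UBE2A: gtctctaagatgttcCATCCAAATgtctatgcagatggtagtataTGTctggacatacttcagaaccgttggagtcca
UBE2S: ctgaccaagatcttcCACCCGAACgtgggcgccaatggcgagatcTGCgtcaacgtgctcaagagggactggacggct
UBE2C: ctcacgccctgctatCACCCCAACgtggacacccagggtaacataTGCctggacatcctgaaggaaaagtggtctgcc
UBE2M: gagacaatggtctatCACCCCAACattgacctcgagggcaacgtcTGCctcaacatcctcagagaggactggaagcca

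In UBE2K the 81 bases shown lie at chr4:39755666-39774840 on the plus strand, in exons 4 and 5, with the intron left out. The 78 bases of UBE2D3 are at chr4:102801473-102801550 on the minus strand in exon 5, and those of UBE2A at chrX:119581572-119582640 on the plus strand in exons 4 and 5. UBE2S is shown from chr19:55404315-55404392, minus strand, exon 3. The UBE2C bases come from chr20:45815619-45815696, plus strand, exon 4, and the UBE2M bases from chr19:58556364-58556748, minus strand, exons 4 and 5. The motif and the cysteine codon were 24 bases apart in UBE2K and 21 in the other 5. Base composition differed between the 2 sets. They were picked by direction, which ran with GC content over all features (below), so the contrast is no separate result. The GC content of the printed stretch was 39.5%, 35.9% and 42.3% in UBE2K, UBE2D3 and UBE2A, against 60.3%, 56.4% and 53.8% in UBE2S, UBE2C and UBE2M. At the last base of each codon over the whole coding sequence, G or C stood in 35.5%, 33.1% and 46.7% of codons in the first 3, and in 81.5%, 65.4% and 81.4% in the last 3.

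The targeted gene followed the labels. NXN was at 181, 138 and 143 CPM (counts scaled to library size with TMM factors) in shControl cells on days 7, 9 and 11, and at 42.7, 47.5 and 39.5 CPM in shNXN cells. Its log2 fold change was -1.83 (SE, the standard error, 0.16; edgeR adjusted p = 0.0378, by the quasi-likelihood test and the Benjamini-Hochberg method). The call was lost when any of 4 of the 6 libraries was left out, fits in which 0% of all features were called. The libraries held 15349382 to 16332589 estimated counts each, and single members had between 38.55 and 11685. All 8 hepatocyte and hepatoma markers were detected, but their summed level was 11613 to 21865 CPM in shControl and 4802 to 13112 CPM in shNXN cells, with ALB at 6955 to 13655 and 683 to 7250 CPM. By edgeR 0 of the 8 passed, beside 3.39% of all features. At an unadjusted p under 0.05, 2 were lower and 1 higher, beside 32.9% of all features. DESeq2 called 1, higher, beside 23.5% of all features. The markers did not move together: AFP and APOB were the 2 lower (log2 fold change -1.07 and -0.94), and SERPINA1 the 1 higher (0.44). The 2 endothelial markers VWF and KDR and the T cell marker CD3E were at 0 in every library, and PECAM1 was not matched. The 6 fibroblast markers summed to at most 8.76 CPM. The 5 leukocyte markers summed to 173 to 225 CPM in shControl and 241 to 377 CPM in shNXN cells, nearly all from LYZ and CD68. The part of these levels in the results below was not tested.

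Measured by counts, most E1 and E2 genes were lower in shNXN cells. The log2 fold change was negative for 24 of the 36 and positive for 12, where 48.6% of all features tested were negative. The median was -0.42 against 0.03 over all features tested, and 8 members lay below -1 while none lay above 1. An adjusted p under 0.05 was reached by 2 members, UBA6 and UBE2W, both lower, which is 5.56% of the 36 beside 3.39% of all features tested. At an unadjusted p under 0.05 there were 20 members, 14 lower and 6 higher, beside 32.9% of all features.

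The replicate numbers mark the day, and libraries of the same day deviated together, so the fit with the day as a block was also read. With the block, 17 of the 36 members passed (13 lower and 4 higher), or 47.2% beside 23.3% of all features. The 13 that fell were UBA6, UBE2W, UBE2K, NAE1, UBA3, UBE2V2, UBE2D3, UBE2Q2, UBE2J1, UBE2E1, UBE2G1, UBA2 and UBE2D2, and the 4 that rose were UBE2S, UBE2C, UBE2O and UBE2M. The count of calls rests on single libraries. Without the block it was 0 when shControl replicate 1 or 3 or shNXN replicate 1 or 2 was left out, where 0% of all features were called. It was 21 without shNXN replicate 3, the library of day 11, beside 25.8% of all features. In those 4 fits with 0 calls, 13 to 15 members had an unadjusted p under 0.05 from edgeR. Without regard to any test, all shNXN libraries lay below all shControl libraries for 12 members (beside 21.5% of all features), and above all of them for 6 (beside 19% of all features).

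**Figure D1:**
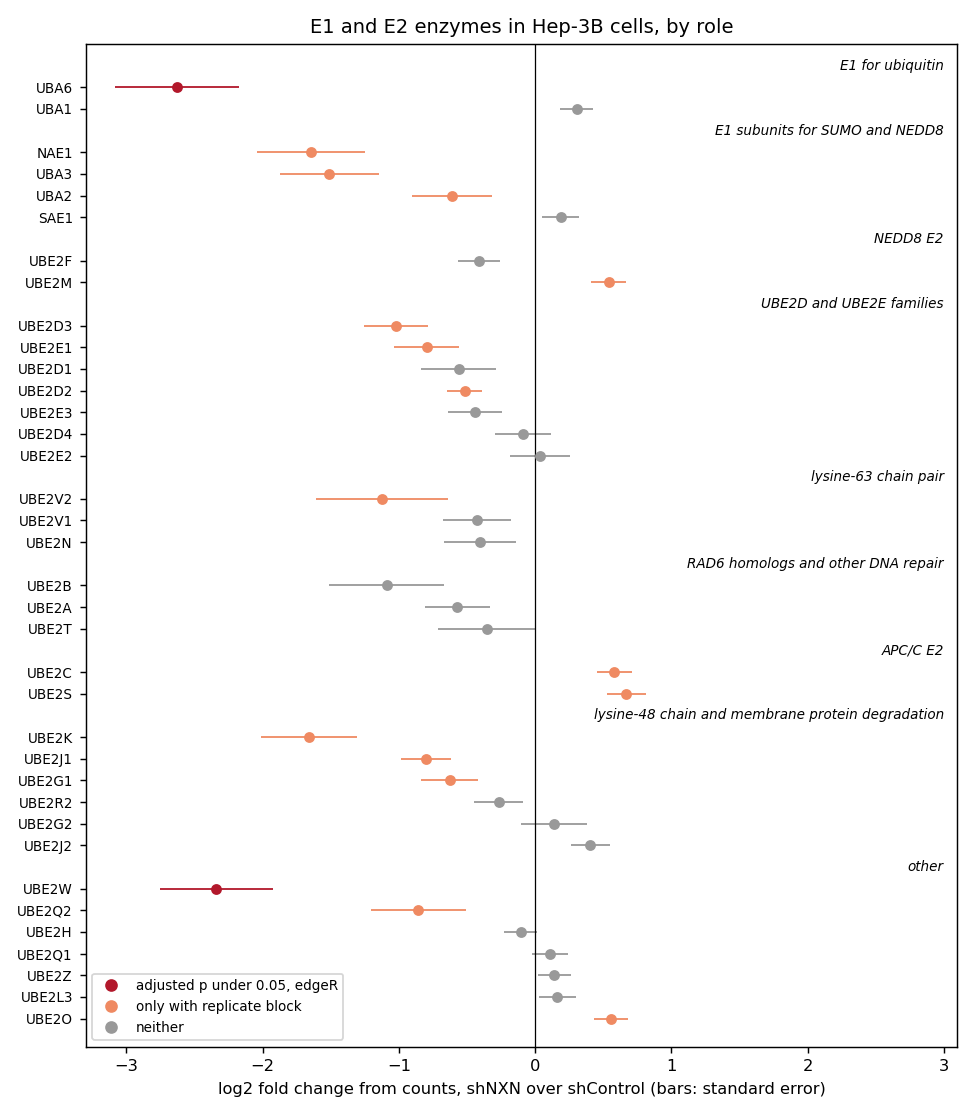
Log2 fold change of each of the 36 enzymes from counts, shNXN over shControl, grouped by role, with the standard error as bars (3 libraries per group). UBA6 at -2.63 and UBE2W at -2.34 are the lowest, and the 4 members that rose with the replicate block lie between 0.54 and 0.67.

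The 2 E1 enzymes for ubiquitin lay on opposite sides of 0. UBA6, the second ubiquitin E1, also charges the ubiquitin-like protein FAT10 and hands ubiquitin to UBE2Z. In shControl cells it was at 159, 140 and 236 CPM on days 7, 9 and 11, and in shNXN cells at 18.9, 17.5 and 50.2 CPM. The groups did not overlap, and the highest shNXN value lay far under the lowest shControl value. The means were 178 ± 50.7 and 28.9 ± 18.5 CPM (SD, n = 3), 6.18-fold lower in shNXN cells, with a log2 fold change of -2.63 (SE 0.45, edgeR adjusted p = 0.0452). UBA1, which charges most ubiquitin in the cell, was at 522, 540 and 515 CPM in shControl and 633, 716 and 599 CPM in shNXN cells. Its groups did not overlap either, but the log2 fold change of 0.30 (SE 0.12) missed the threshold (edgeR adjusted p = 0.134, 0.0691 with the block). UBE2Z, the partner of UBA6, differed by a log2 fold change of 0.14 (SE 0.12, edgeR adjusted p = 0.430).

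For SUMO and NEDD8 the E1 is a pair of subunits. NAE1 and UBA3 together form the NEDD8 E1, and both were lower on each day. NAE1, the regulatory subunit, was at 75.3, 56.2 and 70.0 CPM in shControl and 14.7, 13.4 and 36.4 CPM in shNXN cells. UBA3, the catalytic subunit, was at 22.5, 18.7 and 28.6 CPM against 7.73, 4.72 and 12.1 CPM. Neither gene's groups overlapped. The log2 fold changes were -1.64 (SE 0.40) for NAE1 and -1.51 (SE 0.36) for UBA3, with edgeR adjusted p = 0.0610 and 0.0607, and 0.0230 and 0.0156 with the block.

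The subunits of the SUMO E1 lay on either side of 0. UBA2, its catalytic subunit, was at 189, 199 and 253 CPM in shControl and 111, 100 and 209 CPM in shNXN cells, overlapping groups with a log2 fold change of -0.61 (edgeR adjusted p = 0.188, 0.0400 with the block). SAE1, the other subunit, was at 291, 353 and 289 CPM against 330, 379 and 354 CPM, also overlapping, with a log2 fold change of 0.19 (SE 0.13, edgeR adjusted p = 0.347).

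The 2 NEDD8 E2 enzymes also lay on opposite sides of 0. UBE2M, which works with RBX1 on most cullins, was at 137, 124 and 113 CPM in shControl and 170, 188 and 185 CPM in shNXN cells, with every shNXN library above every shControl library. Its log2 fold change was 0.54 (SE 0.13, edgeR adjusted p = 0.0607, 0.0355 with the block). UBE2F, which serves CUL5, was lower without overlap (44.2 ± 2.5 against 33.2 ± 3.41 CPM, SD, n = 3), with a log2 fold change of -0.41 (edgeR adjusted p = 0.125).

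The UBE2D enzymes work with many RING ligases, and the UBE2E enzymes are their relatives with an N-terminal extension. Of these 7 members, 6 had a negative log2 fold change, from -1.02 for UBE2D3 to -0.09 for UBE2D4, and UBE2E2 stood at 0.04. UBE2D3 was at 239, 182 and 257 CPM in shControl and 95.8, 89.9 and 149 CPM in shNXN cells. The groups did not overlap, and the log2 fold change had a standard error of 0.23 (edgeR adjusted p = 0.0577, 0.0156 with the block). UBE2E1 and UBE2D2 did not overlap either, at -0.80 and -0.52, and passed with the block (edgeR adjusted p = 0.0347 and 0.0313). UBE2D1 and UBE2E3, at -0.56 and -0.44, passed neither fit. UBE2D genes are close paralogs. Their counts were whole numbers in every library, but how reads matching several of them were treated is not given, so the split among them is uncertain.

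UBE2N builds lysine-63 chains with UBE2V1 or UBE2V2, which have the E2 fold but lack the catalytic cysteine. All 3 were lower by counts, and all 3 overlapped between groups. UBE2V1 was at 168, 130 and 195 CPM in shControl and 98.7, 102 and 167 CPM in shNXN cells, a log2 fold change of -0.43 (SE 0.25, edgeR adjusted p = 0.264). Its counts were not whole in most libraries, and how they were shared out is not given. UBE2V2, at -1.12 (SE 0.49), passed with the block (edgeR adjusted p = 0.0250, 0.157 without it). UBE2N itself was at -0.41 (SE 0.26, edgeR adjusted p = 0.304).

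UBE2A and UBE2B, the human RAD6 enzymes, act with RAD18 on PCNA and with RNF20 and RNF40 on histone H2B, and UBE2T acts with FANCL in the Fanconi anaemia pathway. None of the 3 passed without or with the block, and all overlapped between groups. UBE2A was at 44.5, 34.6 and 46.9 CPM in shControl and 23.1, 24.6 and 37.3 CPM in shNXN cells (log2 fold change -0.57, SE 0.24, edgeR adjusted p = 0.148). UBE2T was at 27.7, 29.7 and 39.1 CPM against 21.0, 14.95 and 39.6 CPM, so the day 11 libraries were nearly level. Its log2 fold change was -0.35 (SE 0.36, edgeR adjusted p = 0.506). UBE2B was at -1.09 (SE 0.42, edgeR adjusted p = 0.130, 0.0504 with the block).

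Both E2 enzymes of the anaphase-promoting complex (APC/C), which drives cells out of mitosis, were higher. UBE2C, which starts ubiquitin chains on APC/C substrates, was at 114, 119 and 107 CPM in shControl and 184, 174 and 152 CPM in shNXN cells. UBE2S, which extends them through lysine 11 of ubiquitin, was at 211, 182 and 156 CPM against 296, 293 and 284 CPM. Neither overlapped, and the mean was 1.5-fold higher for UBE2C and 1.59-fold higher for UBE2S. The log2 fold changes were 0.58 (SE 0.13) and 0.67 (SE 0.14), with edgeR adjusted p = 0.0551 and 0.0532, and 0.0240 and 0.0225 with the block. Of 12 proliferation genes on a separate list, 0 passed edgeR's test, beside 3.39% of all features. At an unadjusted p under 0.05 there were 7, beside 32.9% of all features. DESeq2 called 6, beside 23.5%, and 4 passed with the block, beside 23.3%. In the fit with the block TOP2A and CDK1 were lower among these 4 (-1.79 and -1.60), and PLK1 and MCM5 higher (0.57 and 0.47).

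Among the E2 enzymes of lysine-48 chains and of membrane protein degradation, UBE2K stood lowest. UBE2K, which builds lysine-48 chains on its own, was at 269, 163 and 315 CPM in shControl and 55.6, 63.9 and 117 CPM in shNXN cells. The groups did not overlap, and the log2 fold change was -1.66 (SE 0.35, edgeR adjusted p = 0.0527, 0.0154 with the block). UBE2J1, an E2 anchored in the endoplasmic reticulum, was 69.8 ± 10.7 against 40.0 ± 6.08 CPM (SD, n = 3), at -0.80 (edgeR adjusted p = 0.0579, 0.0331 with the block). UBE2G1, which extends chains on cullin-RING substrates, was at -0.63 (edgeR adjusted p = 0.0995, 0.0368 with the block). UBE2J2, the other anchored E2, was higher in every shNXN library, at 114, 89.9 and 101 CPM against 135, 145 and 124 CPM. Its log2 fold change of 0.40 (SE 0.14) did not pass (edgeR adjusted p = 0.110, 0.0704 with the block). UBE2G2, an E2 of endoplasmic reticulum quality control, and UBE2R2, a relative of the SCF enzyme CDC34, had log2 fold changes of 0.14 and -0.27 and passed neither fit.

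The remaining 7 members differ in role. UBE2W, which attaches ubiquitin to the N-terminus of proteins, was at 15.8, 11.6 and 26.5 CPM in shControl and 3.23, 2.39 and 5.03 CPM in shNXN cells. The groups did not overlap, the mean was 5.07-fold lower, and the log2 fold change was -2.34 (SE 0.41, edgeR adjusted p = 0.0452). The UBE2W count was not whole in any library (38.55 to 431.88), and how it was shared out is not given. UBE2L3, which serves HECT and RING-between-RING ligases, was at 170, 137 and 160 CPM against 160, 175 and 187 CPM, overlapping groups with a log2 fold change of 0.16 (SE 0.14, edgeR adjusted p = 0.423). UBE2O, a large enzyme with both E2 and E3 activity, was at 63.8, 64.0 and 65.1 CPM in shControl and 92.9, 101 and 90.3 CPM in shNXN cells. Its groups did not overlap, and its log2 fold change of 0.56 (SE 0.13) passed with the block (edgeR adjusted p = 0.0559, 0.0288 with the block). UBE2Q2 was at -0.86 and passed with the block (edgeR adjusted p = 0.0432), and 2 features named as pseudogene copies of it had mean counts of 1.67 and 12.99. UBE2H, the E2 of the CTLH ligase, was at -0.11 without overlap between groups, and UBE2Q1 was at 0.11 with overlap, and neither passed.

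By day, the members' median log2 difference was -0.50, -0.42 and -0.26 for days 7, 9 and 11, beside medians of 0.00, -0.01 and 0.07 over all features. There was 1 library per group and day, so these values have no error. On every day 20 members were lower and 8 higher, while 8 changed sign, and 32.6% and 35.8% of all features were lower or higher on each day. The smallest difference of the 3 days fell on day 11 for 22 of the 36 members. The share over all features was not computed, so this is not read as a trait of these genes. In NAE1 the difference was -2.35, -2.06 and -0.94 on days 7, 9 and 11, in UBA6 -3.07, -2.997 and -2.23, and in UBE2W -2.27, -2.25 and -2.38. UBE2S went from 0.49 and 0.69 to 0.86. A trend of the difference over the days passed edgeR's test for 0 of the 36 members and 0% of all features. At an unadjusted p under 0.05 it passed for 0 members and 152 features, and with DESeq2 for 0 members and 4 features, so a change of the difference between days was not detectable for these genes.

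**Figure D2:**
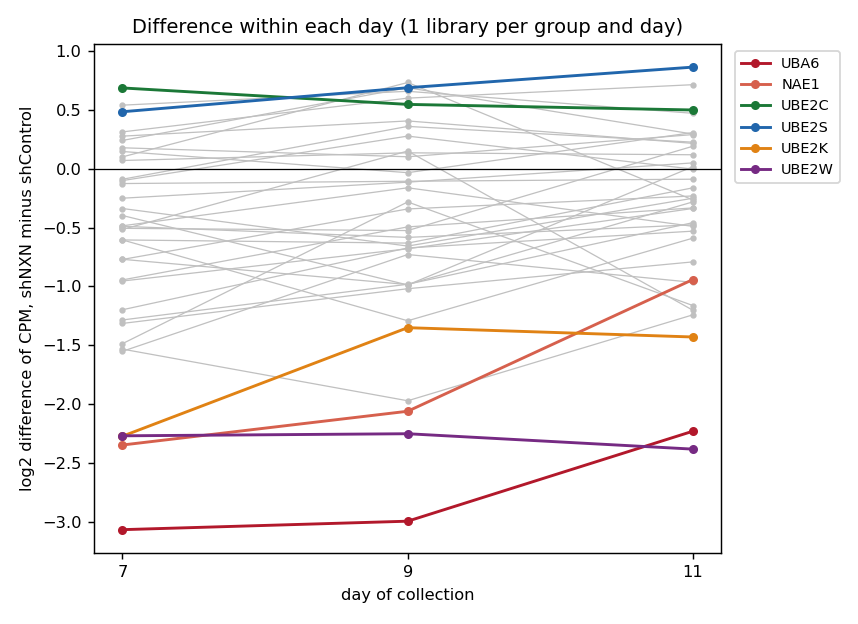
Log2 difference of CPM between the shNXN and the shControl library of each day, 1 line per enzyme, with 6 enzymes in colour. UBA6 stays between -3.07 and -2.23 and UBE2W near -2.3, NAE1 goes from -2.35 to -0.94, and UBE2S and UBE2C stay above 0.

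In the FPKM table, which the authors scaled to transcript length and library size, the members' median lay nearer 0, though not every member differed less. The FPKM totals were higher in the shNXN libraries (688017 to 774345) than in the shControl libraries (631135 to 678216). On the log2(FPKM + 1) scale the median of the 36 members was -0.06, beside 0.13 over all features. Of the members 20 lay below 0 and 16 above, where 40.0% of all features lay below 0. With limma, 1 member passed, UBE2W, beside 1.68% of all features. It was at 3.99, 5.56 and 6.89 FPKM in shControl and 1.06, 0.54 and 1.80 FPKM in shNXN cells, without overlap, a log2 fold change of -1.62 (SE 0.27, limma adjusted p = 0.0438). The added 1 understates the change at such low values: the mean FPKM was 4.84-fold lower, near the 5.07-fold of CPM. UBA3 joined UBE2W with the block (-0.82, limma adjusted p = 0.0466). Without shNXN replicate 3, 9 members passed, beside 16.9% of all features. Without any other single library 0 did, beside 0% to 0.185% of all features (6 to 12 members at an unadjusted p under 0.05 from limma). All shNXN libraries lay below all shControl libraries for 7 members (beside 15.2% of all features) and above for 7 (beside 20.4% of all features).

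Per length, UBE2S was the most abundant member of all, at 247 ± 31.9 FPKM in shControl and 406 ± 22.6 FPKM in shNXN cells (SD, n = 3). UBE2C followed in shControl cells at 196 ± 1.88 FPKM, then UBE2D3 at 187 ± 24.1 and SAE1 at 186 ± 26.6 FPKM, and these neighbours did not differ beyond their spread. UBE2W, UBE2Q2 and UBE2D1 were the least abundant, at 5.48 ± 1.45, 5.82 ± 1.602 and 8.11 ± 2.67 FPKM. These 3 also overlapped in their spread.

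Counts and FPKM ranked the members' differences largely alike (Spearman's rho 0.82 across the 36 genes, which come from the same libraries). UBA6 departed most, but not alone. In shControl cells UBA6 was at 41.6, 118 and 80.4 FPKM, and in shNXN cells at 85.7, 86.2 and 71.6 FPKM. The groups overlapped, with means of 80.0 ± 38.2 and 81.2 ± 8.29 FPKM (SD, n = 3), and the log2 fold change was 0.14 (SE 0.35, limma adjusted p = 0.803). NAE1 was the other member whose 2 log2 fold changes differed by at least 1. It was at 50.3, 37.6 and 48.8 FPKM in shControl and 37.0, 33.8 and 25.0 FPKM in shNXN cells, a log2 fold change of -0.51 (limma adjusted p = 0.160) beside -1.64 from counts. There were 5 members lower by counts and higher by FPKM (UBA6, UBE2G1, UBE2N, UBE2H and UBE2D4) and 1 the other way (UBE2G2). UBE2G1 was at 0.14 from FPKM beside -0.63 from counts, and UBE2D3 at -0.04 beside -1.02. Both overlapped between groups by FPKM (limma adjusted p = 0.562 and 0.869), although both fell by counts with the block. UBE2S (0.72 from FPKM), UBE2C (0.62) and UBE2M (0.55) differed little from their count values and did not overlap between groups in either table.

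**Figure D3:**
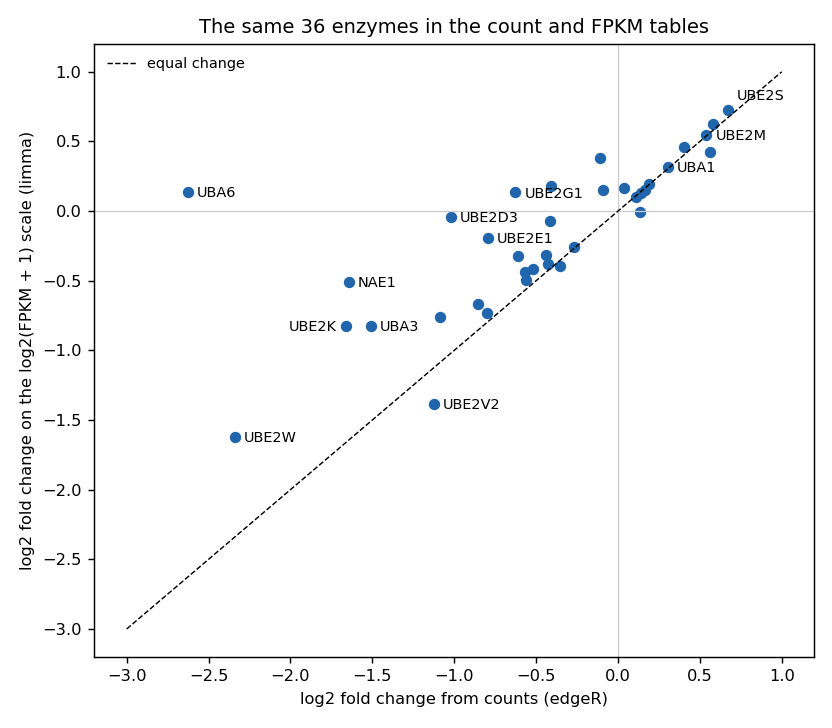
Log2 fold change from counts (horizontal, edgeR) against that on the log2(FPKM + 1) scale (vertical, limma) for the 36 enzymes, with a dashed line of equal change. UBA6, at -2.63 and 0.14, lies farthest from the line, and members above 0 on both axes lie close to it.

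A count divided by its FPKM and by the library total gives a length in bases, the one that the pair of tables implies. It is not an annotated length: UBE2J1, with 1 annotated transcript of 4290 bases, came out at 3992 to 4044 bases in the 6 libraries. UBE2R2, with 1 of 4075 bases, came out at 3777 to 3828 bases. A shortfall of this kind weighs more on a short length, so log2 differences that involve short lengths are uncertain. For UBA6 this implied length was 3791, 1186 and 2928 bases in shControl and 226, 206 and 677 bases in shNXN cells on days 7, 9 and 11, without overlap. The 226 and 206 bases lie under its shortest annotated transcript of 385 bases. The mean log2 difference was -2.90, a drop matched or exceeded by 2 of the 13970 features with a value, UBA6 included. For NAE1 the implied length was 1486, 1491 and 1432 bases in shControl and 409, 404 and 1406 bases in shNXN cells, so the libraries of day 11 were nearly level and those of days 7 and 9 were not.

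Other members shifted less. The mean log2 difference in implied length was -0.99 for UBE2D3, -0.84 for UBE2K, -0.79 for UBE2G1, -0.68 for UBA3, -0.63 for UBE2E1 and -0.56 for UBE2N. With UBA6 and NAE1 that made 8 members below -0.5, where 12.0% of all features lay, and none above 0.5. Only UBA6 and NAE1 were at least 2-fold shorter in implied length, beside 3.61% of all features, and for NAE1 this rests on days 7 and 9. For 17 members the difference was within 0.1 of 0, as for 52.7% of all features, among them UBA1, UBE2S, UBE2C, UBE2M and UBE2J1. How the FPKM lengths were set is not given in the sources used here, and this was not tested.

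**Figure D4:**
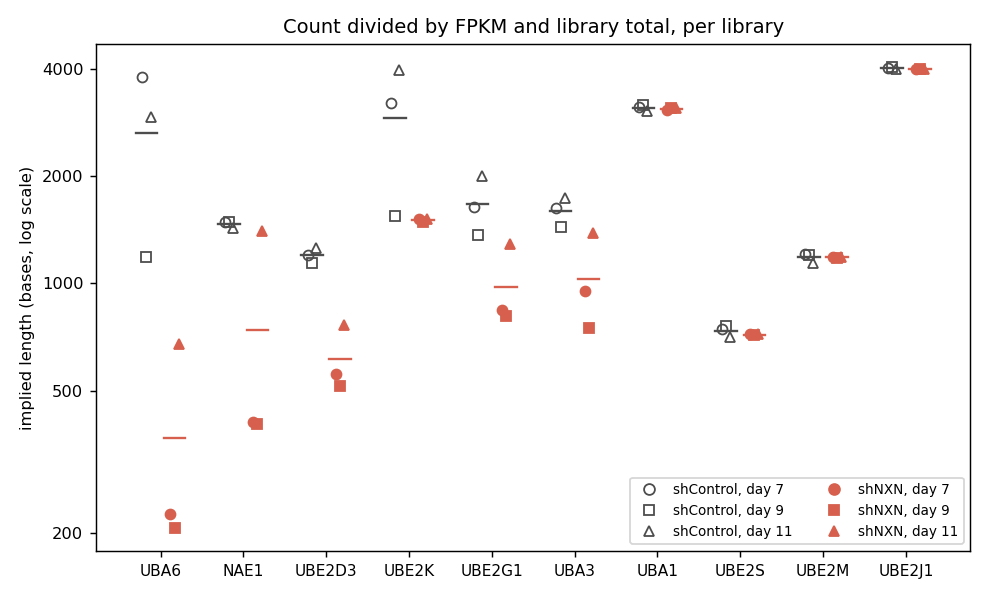
Length in bases implied by counts and FPKM (log axis) in each library for 6 members whose length was shorter in shNXN cells and 4 whose length was not, with bars at the arithmetic mean of 3 libraries. UBA6 drops from 1186 to 3791 bases in shControl to 206 to 677 bases in shNXN cells, while the 6 points of UBE2J1 lie together between 3992 and 4044 bases.

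The direction of the members ran with the GC content of their transcripts, taken from the longest GENCODE 29 transcript. The 36 members had a median GC content of 43.6%, from 34.0% to 65.6%, beside 48.4% over the features tested. Of the 20 members under 45% GC, 19 had a negative log2 fold change from counts, and all 9 members at 50% or more had a positive one. Spearman's rho between GC content and log2 fold change was 0.85 across the 36 genes and 0.79 across the 12740 tested features with a GC value, and 0.75 and 0.66 with FPKM. These genes share the same 6 libraries, so the values are a description. The 13 members that fell with the block had 34.3% to 46.6% GC (median 40.1%), and the 4 that rose 50% to 65.6% (median 57.1%).

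After each library's GC trend had been taken out, fewer members stood apart. The members' median became 0.022, and edgeR called 0 of 36 (13 at an unadjusted p under 0.05; no other tool was run with this correction) beside 0.0355% of all features. With the block and the correction together 2 members passed, beside 1.02% of all features. UBA6 had a log2 fold change of -1.35 (SE 0.14, edgeR adjusted p = 0.0367), and UBE2A turned to 0.93 (SE 0.13, edgeR adjusted p = 0.0476). Both calls depended on the transcripts that gave the GC values over all genes, although UBA6 itself had 35.7% GC with either choice. With the longest APPRIS principal transcript of each gene instead, a setting chosen after seeing the data, edgeR called 0 members (12 at an unadjusted p under 0.05) beside 0.22% of all features. UBE2A, whose GC content is 34.6% in the longest transcript and 42.8% in the principal one, was then at 0.053 (SE 0.16, edgeR adjusted p = 0.887), and UBA6 at -1.23 (SE 0.14, edgeR adjusted p = 0.0531). With the block and the longest transcripts, UBE2W was at -0.82 (edgeR adjusted p = 0.0992) and NAE1 at -0.88 (edgeR adjusted p = 0.0929). UBE2C and UBE2S were at 0.43 and 0.36 and no longer passed (edgeR adjusted p = 0.104 and 0.174). UBE2D3 turned to 0.11, and was at -0.44 with principal transcripts. The correction removes any group difference that follows GC content, whatever its origin, so a difference from library preparation and one from the cells cannot be told apart.

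**Figure D5:**
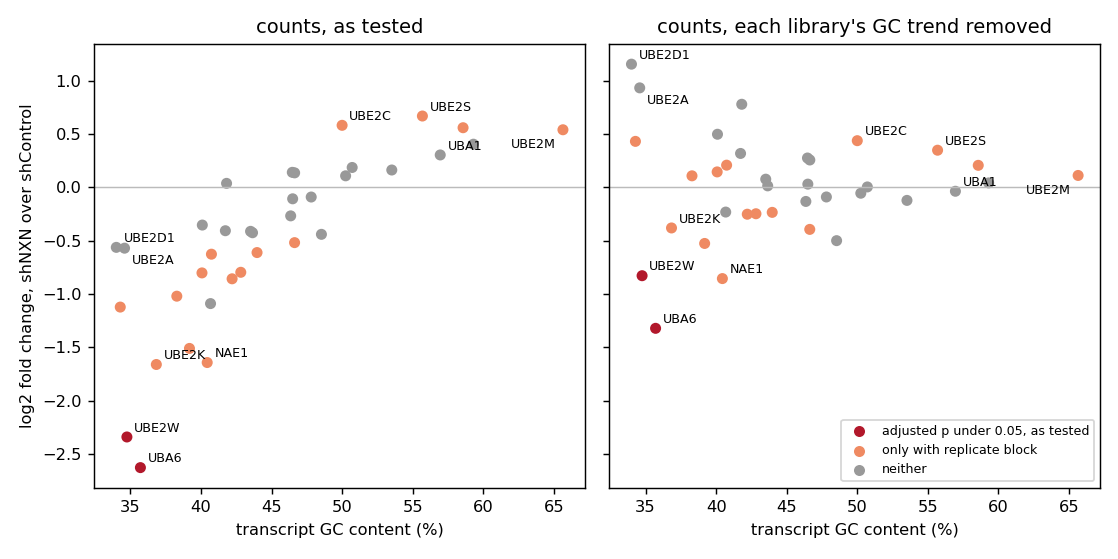
Log2 fold change from counts against transcript GC content (%) for the 36 enzymes, as tested (left) and after each library's GC trend was removed (right), without the replicate block. On the left UBA6 and UBE2W lie lowest at 35.7% and 34.7% GC. On the right UBA6 is at -1.32 and UBE2A at 0.93.

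The E3 ligases and ligase cofactors that work with these enzymes were read from a list of 46 genes, all tested. Of these, 5 fell and 0 rose by edgeR's test, beside 3.39% of all features in either direction. At an unadjusted p under 0.05, 18 were lower and 5 higher, beside 32.9% of all features. DESeq2 called 17 lower and 2 higher, beside 23.5% of all features. With the block 17 were lower and 4 higher, beside 23.3% of all features. With the block and the GC correction edgeR called 0 (9 at an unadjusted p under 0.05), beside 1.02% of all features. By counts, DCUN1D1 and DCUN1D4, which help load NEDD8 onto cullins, fell with log2 fold changes of -1.90 and -1.64 (edgeR adjusted p = 0.0452 and 0.0483). FANCL, the ligase that UBE2T serves, fell (-1.62, edgeR adjusted p = 0.0482), as did RNF139, a ligase of the endoplasmic reticulum (-1.46, edgeR adjusted p = 0.0473), and BIRC2, of the inhibitor of apoptosis family (-2.01, edgeR adjusted p = 0.0456). From FPKM, DCUN1D1 was at -1.89, DCUN1D4 at -0.34, FANCL at -0.99, RNF139 at -1.35 and BIRC2 at -1.23. Of these only RNF139 passed by FPKM (limma adjusted p = 0.0458, against 0.302 for DCUN1D4). The median over the 46 genes was -0.28, and 0.0051 after the GC correction.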

How the data were processed

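RNA was sequenced from 6 libraries of Hep-3B cells, and groups and days were taken from the labels. The authors deposited 1 table of estimated counts (15.1% to 18.8% of each library's values, zeros included, not whole) and 1 table of FPKM values for the same 23406 features, of which 20314 carried Ensembl identifiers (19433 with a symbol) and 3092 were assembled loci. The aligner, counting program, strand setting and transcript lengths are not given in the sources used here. The submitters' processing notes name only the mouse builds GRCm38 and mm10, although the identifiers are human. Estimated counts can share out reads that match several genes, so paralogs and members with counts that are not whole are uncertain.

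After rounding, counts were tested in edgeR 4.0.16 in R 4.3.3 (TMM, filterByExpr, quasi-likelihood test). FPKM values were tested on the log2(FPKM + 1) scale with limma 3.58.1, which understates the change of low genes. Benjamini-Hochberg adjustment ran over all 14071 features and calls were made at 0.05. The standard error of a count fold change is its size over the square root of F. Day entered as the replicate block: same-day deviations from the group means correlated at 0.28, 0.30 and 0.43, and those of different days at -0.35 to 0.14. The labels give the same days to both groups. The GC correction fitted a natural spline (5 degrees of freedom) per library and entered it as an offset, with GC from each gene's longest transcript or, added after seeing the data, its longest principal one. Daily differences used a prior count of 1. Alternatives were DESeq2 1.42.0, other scalings and filters, a pseudocount of 0.1 and each library left out.

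Named with each library's value were members passing the count test without the block, the fit with block and GC correction or the FPKM test, the 8 with the smallest p with the block, those whose 2 log2 fold changes differed by at least 1, and the member of highest FPKM in each role. E3 partners were named when they passed, and some other genes of the pathway are not reported here. UBA2 and UBE2O fall outside this rule, and their library values were added with the results known. The members, lists and corrections were chosen with earlier results of these data known.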

Additional observations from a re-analysis of the deposited data

How the results depend on the processing

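Of the 36 members, 17 kept the direction of their count difference under every alternative and 31 that of their FPKM difference. The 2 calls from counts (3.39% of all features were called) became 14 with DESeq2 (23.5%), 9 when only library size was scaled for (6.6%), 8 with RLE factors (5.87%), 7 without a filter on low counts (4.22%), 17 with the replicate block (23.3%) and 0 with the GC correction (0.0355%). With the block and GC values from principal transcripts, a setting chosen after seeing the data, 0 were called (0.22%). The number ran from 0 to 21 when 1 library was left out, where 0% to 25.8% of all features were called. The 1 call from FPKM (1.68%) became 0 with a pseudocount of 0.1 (0.142%), 0 without a filter (0%) and 2 with the replicate block (4.51%), and 0 to 9 with a library left out (0% to 16.9%). The median from counts moved from -0.42 to 0.022 with the GC correction, to 0.025 with the block as well and to -0.014 with principal transcripts, and lay between -0.55 and -0.27 with a library left out, while the FPKM median lay between -0.21 and -0.044. The NXN log2 fold change lay between -1.90 and -1.67 with 1 library left out, and was -2.20 with the GC correction, -2.19 with the block as well and -2.18 with principal transcripts. It missed the threshold without shControl replicate 1 or 3 or shNXN replicate 1 or 2 (adjusted p up to 0.225 from edgeR). The cause was not tested, but the GC correction by construction removes whatever follows GC content.

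With the GC correction, and then with the block as well, these members turned: UBE2D1 to 1.16 and 1.05, UBE2A to 0.93 and 0.93, UBE2T to 0.50 and 0.49, UBE2V2 to 0.43 and 0.46, UBE2N to 0.32 and 0.35, UBE2G1 to 0.21 and 0.20, UBE2J1 to 0.15 and 0.14, UBE2D3 to 0.11 and 0.11, UBE2F to 0.077 and 0.074, UBE2H to 0.031 and 0.026, UBE2V1 to 0.014 and 0.023, UBA1 to -0.036 and -0.037, UBE2Q1 to -0.055 and -0.051, and UBE2L3 to -0.12 and -0.12. With the block and principal transcripts UBE2D1 turned to 1.21, UBE2V2 to 0.62, UBE2N to 0.41, UBE2G1 to 0.26, UBE2J1 to 0.20, UBE2F to 0.14, UBE2H to 0.085, UBE2T to 0.070, UBE2A to 0.053, UBE2Q1 to -0.014, SAE1 to -0.015, UBA1 to -0.033 and UBE2Z to -0.13. With 1 library left out the count value ran from -0.095 to 0.22 for UBE2E2, -0.071 to 0.41 for UBE2G2 and -0.26 to 0.047 for UBE2D4. The FPKM value ran from -0.27 to 0.48 for UBA6, -0.11 to 0.082 for UBE2G2, -0.17 to 0.058 for UBE2F, -0.012 to 0.30 for UBE2E2 and -0.15 to 0.027 for UBE2D3. With 3 libraries per group and 1 per day, no day can be tested alone, and an exact permutation test of 3 against 3 cannot go below p = 0.1.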
